A study of Rattus norvegicus with 6 samples.

Results

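The insulin-like growth factor (IGF) system was read here through 10 genes, chosen by symbol: the ligand genes Igf1 and Igf2, the receptor genes Igf1r and Igf2r, and the binding protein genes Igfbp2, Igfbp3, Igfbp4, Igfbp5, Igfbp6 and Igfbp7. All 10 were among the 37209 gene symbols of the count table, and all 10 were among the 13390 genes that passed the filter on low counts and were tested. The cells were primary wild-type rat mesenchymal stem cells from femur marrow (BMSCs), the stromal cells from which bone, cartilage and fat cells can arise. They were grown to 80% confluence in medium with serum, and then kept for 6 h either with 3% cigarette smoke extract (CSE) or with serum-free culture medium as the control, with 3 RNA-seq libraries per group. Whether the extract was given in serum-free medium is not stated in the sources used here, so an effect of serum and an effect of the extract cannot be told apart from the labels. Nothing in the labels ties the 3 libraries of a group to different animals or dishes, so each p-value here reflects the variation among these libraries only, which may be technical.

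IGF1 and IGF2 are secreted peptides related to insulin. Both signal through the tyrosine kinase receptor encoded by Igf1r, which recruits insulin receptor substrates and activates the PI3K, AKT and mTOR pathway, whereas the receptor encoded by Igf2r takes IGF2 into the cell for lysosomal breakdown and also carries lysosomal enzymes tagged with mannose 6-phosphate. Binding proteins hold IGFs outside the cell, prolong their life, block or present them to the receptor, and are cut by proteases that release the ligand. In bone, IGF1 and IGF2 support growth and matrix production by osteoblasts, which also secrete several binding proteins.

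Library totals ranged from 15958621 to 22589327 counts, 17430800 ± 1363831 for the control and 20930552 ± 1584059 for CSE (SD, n = 3, exact 2-sided permutation p = 0.1, the smallest this design allows). All 6 genes listed as a check of the exposure were higher with CSE. They were listed with earlier results of these data known, so this is not an independent check. The dioxin-responsive Cyp1a1 was at 53.8 ± 0.874 with CSE against 0.0532 ± 0.0506 counts per 1000000 counts (CPM) in the control. Its control libraries were all below the filter level. The haem-degrading enzyme gene Hmox1 was at 9340 ± 356 with CSE against 119 ± 7.74 CPM in the control. The stromal genes Col1a1 and Col3a1 were abundant, and so was the macrophage lysozyme gene Lyz2 at 1174 to 1413 CPM on average in the groups, so the cultures held macrophage transcripts too. The endothelial markers summed to 24.2 to 26.8 CPM in the control libraries and 26.4 to 29.0 CPM in the CSE libraries. The lymphoid and erythroid markers summed to at most 0.490 CPM in any library. Values below are CPM of library sizes scaled by TMM (trimmed mean of M-values), as mean ± SD over 3 libraries, and log2 fold changes (± SE) that are positive where CSE was higher, with p from edgeR's quasi-likelihood test adjusted over all tested genes and called at 0.05.

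Of the 10 genes, 7 passed the threshold, 3 higher with CSE (Igf1r, Igf2r and Igfbp7) and 4 lower (Igf1, Igfbp3, Igfbp4 and Igfbp5), while Igf2, Igfbp2 and Igfbp6 did not pass. Calls were common throughout this comparison: 73.9% of all tested genes passed, 36.3% higher and 37.5% lower, so 7 of 10 is near the background. The groups did not overlap for 8 of the 10, against 75.8% of all tested genes, the exceptions being Igfbp2 and Igfbp3. The median log2 fold change of the 10 was -0.16, against -0.02 over all tested genes. It was -0.35 under total counts alone, -0.30 under upper-quartile scaling, -0.26 without CSE library 3, -0.08 without CSE library 1 and 0.12 under the stricter filter, which kept 7 of them. Changes of at least 2-fold were found in 2 of them, Igfbp5 and Igf1, against 25.2% of all tested genes. The other called members changed by ordinary or small amounts for this comparison. By size of change, Igfbp4 was at percentile 59.5 of all tested genes, Igf1r at 49.3, Igfbp3 at 44.9, Igfbp7 at 43.7 and Igf2r at 28.8. The median absolute log2 fold change of the 10 was 0.55, against 0.54 over all tested genes. Scaling by total counts alone moved the median of all genes from -0.02 to -0.21, and the split of the 10 became 2 higher and 5 lower. Over all genes the calls were then 3749 higher and 6319 lower, against 4867 and 5027 with TMM.

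**Figure D1:**
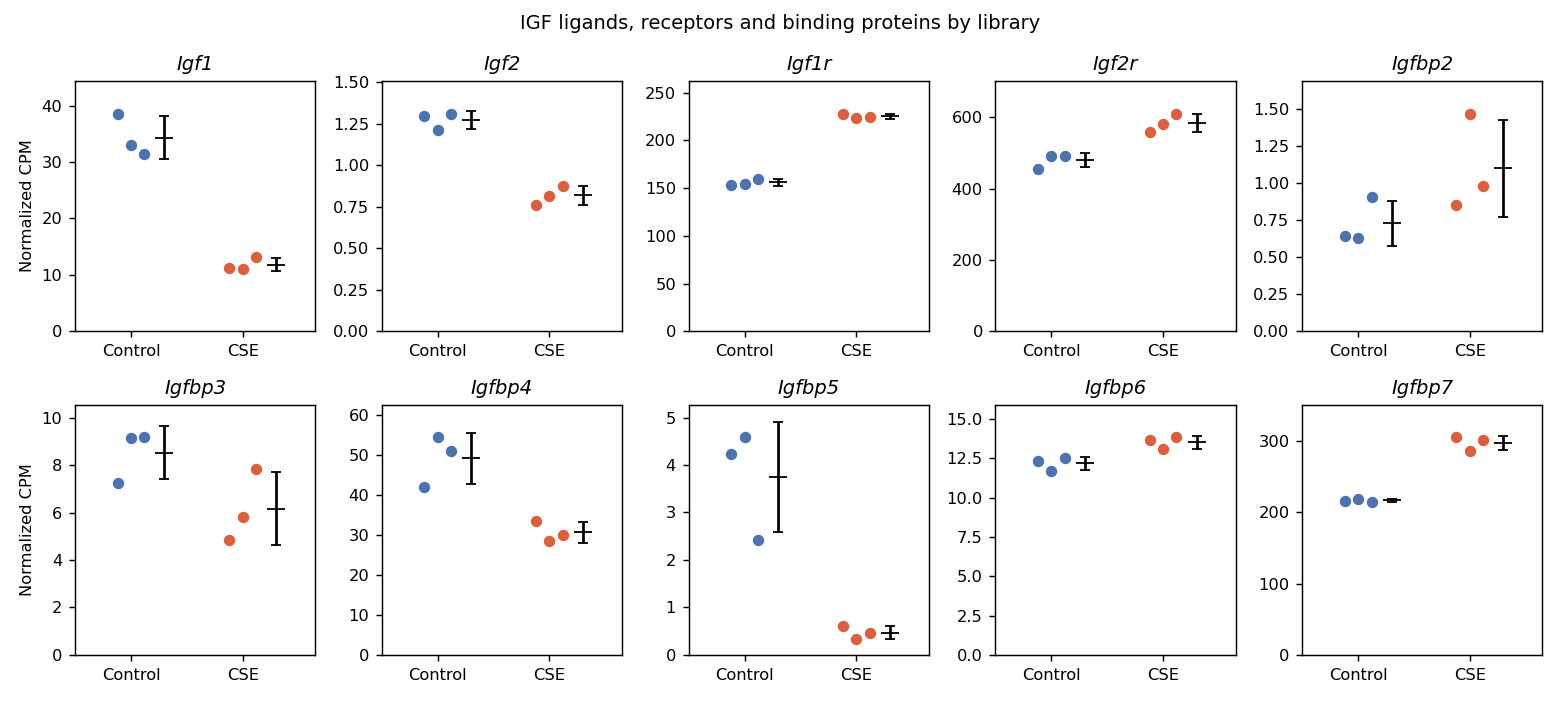
Normalized CPM of each of the 10 genes in the 3 control (blue) and 3 CSE (orange) libraries, with each vertical axis starting at 0. Points are libraries and black bars are mean ± SD (n = 3). The control and CSE points overlap for Igfbp2 and Igfbp3 and lie apart for the other 8.

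Of the ligand genes, Igf1 was lower with CSE. It stood at 38.6, 33.1 and 31.4 CPM in control libraries 1, 2 and 3 and at 11.2, 11.1 and 13.1 CPM in CSE libraries 1, 2 and 3. Every CSE library was thus well below every control library. The mean fell from 34.4 ± 3.76 to 11.8 ± 1.14 CPM, a 2.90-fold difference (log2 fold change -1.54 ± 0.10, edgeR adjusted p = 1.4e-10), on 1907 control and 694 CSE counts. In size this change was at percentile 87.3 of all tested genes. In RNA from whole cultures, fewer cells of a type and less Igf1 RNA per cell cannot be told apart. Macrophages also express Igf1. Of 15 macrophage markers, 13 were tested, of which 3 were higher, 4 were lower and 6 missed the threshold. The share of these markers called was 53.8%, below the 73.9% of all tested genes. Their median was -0.11. Lyz2 (0.27 ± 0.04), Tyrobp (0.28 ± 0.07) and Cd68 (0.14 ± 0.06) were higher. The lower markers were the lipopolysaccharide co-receptor gene Cd14 (-1.45 ± 0.08), the leukocyte gene Ptprc (-0.33 ± 0.06), the mannose receptor gene Mrc1 (-0.28 ± 0.07) and the colony-stimulating factor receptor gene Csf1r (-0.25 ± 0.05). Cd163 was listed at 0 in all 6 libraries. The summed level of the list was 1801 to 1861 CPM in the CSE libraries and 1627 to 1679 CPM in the control libraries, most of it from Lyz2. Without Lyz2 the sum had the opposite order, at 404 to 424 CPM with CSE and 472 to 485 CPM in the control. Stromal markers were also mixed. Of 13 tested, 3 were higher, 6 lower and 4 missed the threshold, around a median of -0.01. The share of them called was 69.2%, near the background of 73.9%. The chemokine gene Cxcl12 (-2.17 ± 0.06), the growth factor receptor genes Pdgfra (-0.97 ± 0.06) and Pdgfrb (-0.87 ± 0.05), Prrx1 (-0.95 ± 0.05), Nt5e (-0.90 ± 0.17) and Col1a1 (-0.14 ± 0.04) were lower, and Cd44 (1.09 ± 0.05), Vim (0.29 ± 0.04) and Thy1 (0.26 ± 0.04) were higher. Their summed level was 49632 to 51393 CPM in the CSE libraries and 50462 to 53353 CPM in the control libraries. The part of macrophage or stromal RNA in the changes of Igf1, Igfbp4 and Igfbp5 was not tested.

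Igf2, the fetal growth factor gene, was near the limit of detection. It had 22, 23 and 26 counts in control libraries 1, 2 and 3 and 16, 15 and 17 counts in CSE libraries 1, 2 and 3. In CPM this was 1.27 ± 0.0533 in the control and 0.818 ± 0.0597 with CSE, and the groups did not overlap. The difference of -0.64 ± 0.31 on the log2 scale missed the threshold (edgeR adjusted p = 0.0709, 95% interval -1.28 to 0.01), and it passed under upper-quartile scaling (-0.77, edgeR adjusted p = 0.031) and total counts alone (-0.82, edgeR adjusted p = 0.0223). The adjusted p over all alternatives lay between 0.0223 and 0.189, the latter from DESeq2. H19, the imprinted noncoding RNA gene next to Igf2 with no protein-coding gene between them in RefSeq's GRCr8 annotation, was better covered. H19 stood at 20.6, 21.6 and 22.3 CPM in the control libraries and at 9.76, 11.0 and 10.9 CPM in the CSE libraries. It fell by 1.03 ± 0.09 on the log2 scale (edgeR adjusted p = 1.6e-08), and its groups did not overlap.

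Both receptor genes were higher with CSE. Igf1r stood at 153, 155 and 160.0 CPM in the control libraries and at 228, 223 and 225 CPM in the CSE libraries. All CSE libraries were above all control libraries, and the spread within each group was small. The mean rose 1.44-fold from 156 ± 3.48 to 225 ± 2.46 CPM (0.53 ± 0.04, edgeR adjusted p = 9.1e-09). Igf2r stood at 456, 489.8 and 491 CPM in the control libraries and at 559, 581 and 609.8 CPM in the CSE libraries. Its groups were again apart, by a smaller margin than those of Igf1r relative to their level. The mean rose 1.22-fold from 479 ± 19.7 to 583 ± 25.4 CPM (0.28 ± 0.05, edgeR adjusted p = 3.4e-05). Under total counts alone the value for Igf2r was 0.10 and no longer passed (edgeR adjusted p = 0.0711, the highest over its alternatives, of which DESeq2 gave the lowest at 1.8e-09), whereas that for Igf1r was 0.34 and passed (edgeR adjusted p = 2.0e-06). Relative to Igf2r counts in the same library, Igf1r counts made up 32.6 ± 1.04% in the control and 38.7 ± 1.95% with CSE (SD, n = 3), a ratio that no scaling of libraries can change.

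Ligand and receptor genes thus moved in opposite directions for Igf1. The count of Igf1r per count of Igf1 was 3.98, 4.67 and 5.09 in the control libraries and 20.4, 20.1 and 17.1 in the CSE libraries. The means were 4.58 ± 0.564 and 19.2 ± 1.78. Igf1 counts per Igf2 count fell from 27.0 ± 2.94 to 14.4 ± 0.725. Counts are not corrected for transcript length, so these ratios show differences between libraries and not how many molecules of each RNA there were.

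**Figure D2:**
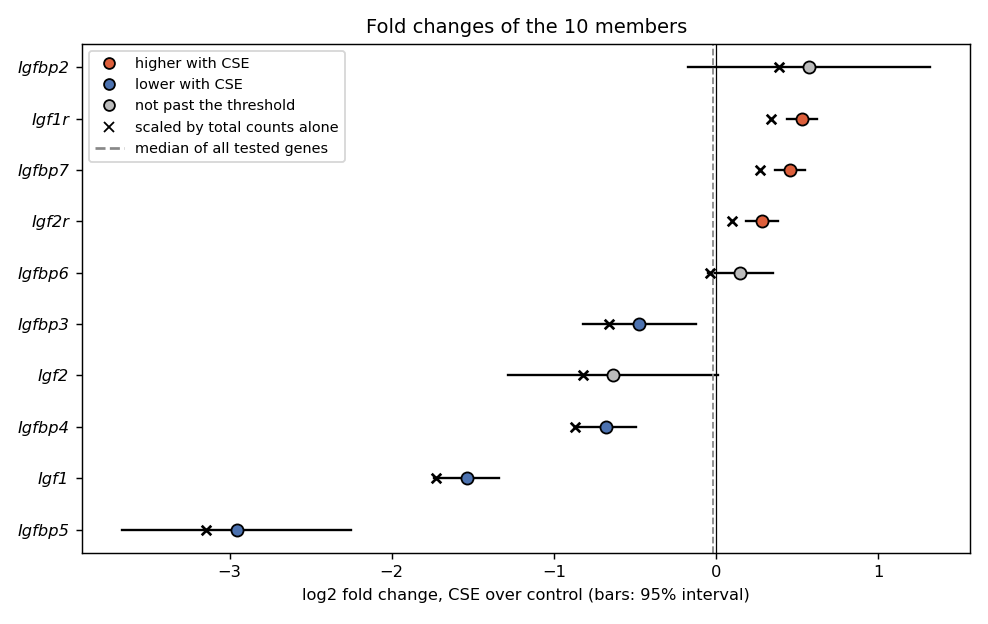
Log2 fold change of CSE over control for the 10 genes, ordered by size, with 95% intervals as bars and the value under scaling by total counts alone as crosses. Igfbp5 and Igf1 lie farthest to the left at -2.96 and -1.54, and the intervals of Igfbp2, Igfbp6 and Igf2 cross 0.

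Among the binding protein genes, Igfbp5 and Igfbp4 were lower with CSE and Igfbp7 was higher. Their promoters are printed with that of Igfbp2, the neighbour of Igfbp5. The change of Igfbp2 itself did not pass the threshold. The sequences are RefSeq's, from the GRCr8 build, which is not the build named for the counts, and are the bases before the first base of each gene record, 5′ to 3′ on the gene's strand. Capitals mark the core of the xenobiotic response element (GCGTG, the site of the aryl hydrocarbon receptor), the GC box (GGGCGG), a pair of inverted heat shock units (GAANNTTC) and the TATA box (TATAAA), on either strand.
Igfbp5 (GRCr8 chr9:81914188-81914437, minus strand): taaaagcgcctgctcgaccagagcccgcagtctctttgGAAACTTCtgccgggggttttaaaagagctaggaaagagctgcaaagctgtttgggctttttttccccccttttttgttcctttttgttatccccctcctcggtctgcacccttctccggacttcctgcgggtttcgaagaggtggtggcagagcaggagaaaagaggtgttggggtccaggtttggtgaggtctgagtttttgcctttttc
Igfbp4 (GRCr8 chr10:84491221-84491470, plus strand): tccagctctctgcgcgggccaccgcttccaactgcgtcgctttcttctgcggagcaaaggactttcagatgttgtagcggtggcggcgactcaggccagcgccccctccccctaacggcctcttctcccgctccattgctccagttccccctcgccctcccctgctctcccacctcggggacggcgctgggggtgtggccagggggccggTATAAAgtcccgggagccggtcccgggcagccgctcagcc
Igfbp2 (GRCr8 chr9:81864561-81864810, plus strand): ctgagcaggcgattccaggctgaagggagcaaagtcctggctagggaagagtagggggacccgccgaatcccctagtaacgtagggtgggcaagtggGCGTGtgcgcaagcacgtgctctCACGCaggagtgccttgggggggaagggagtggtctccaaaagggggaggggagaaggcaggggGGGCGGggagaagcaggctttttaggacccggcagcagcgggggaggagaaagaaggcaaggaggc
Igfbp7 (GRCr8 chr14:31091486-31091680, plus strand): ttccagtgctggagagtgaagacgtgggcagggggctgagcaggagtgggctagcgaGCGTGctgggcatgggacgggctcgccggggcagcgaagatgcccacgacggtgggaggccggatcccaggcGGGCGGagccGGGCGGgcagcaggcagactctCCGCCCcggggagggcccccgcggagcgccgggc
In windows of 300 bases, from 250 before to 50 after the start site that the RefSeq table uses, GCGTG was found in 5 of the 10 genes (Igf2, Igf1r, Igfbp2, Igfbp3 and Igfbp7), against 29.7% of all 33469 windows of that length. GGGCGG was found in 5 of 10 (Igf2, Igf1r, Igf2r, Igfbp2 and Igfbp7), against 33.1%. Among windows of protein-coding genes, as all 10 are, GCGTG was in 34.7% and GGGCGG in 41.8%. GAANNTTC was found only in Igfbp5 (8.59% of all windows) and TATAAA only in Igfbp4 (14.2%). The antioxidant response element core TGACNNNGC was in none of the 10 (12.1%). Its letters can overlap an AP-1 site (TGANTCA), which was also in none of them (7.33%). The GC content of the window was 48.3% for Igf1 and 50.7% for Igfbp5, the genes with the largest falls, and 68.0% for Igf2r, 74.3% for Igfbp7 and 78.0% for Igf1r, the genes that rose. The windows of Igfbp3 and Igfbp4, which were also lower, had 71.7% and 71.0%. Those of Igf2, Igfbp2 and Igfbp6, which did not pass, had 63.3%, 66.7% and 55.3%. A relation between GC content and direction was not tested. The windows of Igf1 and Igf2 lie inside the gene record, downstream of its first base. Most of the window of Igf1r does so too, with 40 bases before that base, and that of Igfbp7 has 195 before it. These matches describe letters and not bound sites.

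Igfbp5, which encodes a binding protein stored in bone matrix, showed the largest fold change of the 10. It stood at 4.24, 4.58 and 2.42 CPM in control libraries 1, 2 and 3 and at 0.616, 0.327 and 0.465 CPM in CSE libraries 1, 2 and 3. Control library 3 was lower than the other controls and still above every CSE library. The mean fell from 3.75 ± 1.16 to 0.469 ± 0.145 CPM, a 7.77-fold difference (-2.96 ± 0.33, edgeR adjusted p = 3.6e-07) on 207 control and 28 CSE counts, at percentile 97.2 of all tested genes by size. It passed the filter through the control group, since 1 of 3 CSE libraries reached the level of 0.525 CPM that the filter requires. A gene kept in this way is more likely to differ, though the filter does not set the size of the difference. Igfbp2 lies next to Igfbp5, with no other gene between them in the GRCr8 annotation and on the opposite strand. It had 11, 12 and 18 counts in the control libraries and 18, 27 and 19 in the CSE libraries. The groups overlapped, and its value of 0.57 ± 0.35 did not pass (edgeR adjusted p = 0.152, 95% interval -0.17 to 1.32). It was 0.33 without CSE library 2 (edgeR adjusted p = 0.481) and 0.76 without control library 3 (edgeR adjusted p = 0.122).

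Igfbp4, which encodes an inhibitor of IGF action, was also lower. It stood at 42.1, 54.5 and 51.2 CPM in the control libraries and at 33.7, 28.5 and 30.0 CPM in the CSE libraries. No CSE library reached the lowest control library. The mean fell from 49.3 ± 6.44 to 30.7 ± 2.65 CPM, a 1.60-fold difference (-0.68 ± 0.09, edgeR adjusted p = 1.9e-06). Igfbp3, which encodes the main IGF carrier of the circulation, stood at 7.24, 9.16 and 9.18 CPM in the control libraries and at 4.83, 5.83 and 7.85 CPM in the CSE libraries. CSE library 3 lay above control library 1, so the groups overlapped. The mean was 8.53 ± 1.12 in the control and 6.17 ± 1.54 CPM with CSE (-0.47 ± 0.16, edgeR adjusted p = 0.0157). This call rested on single libraries. It ended without CSE library 1 (-0.31, edgeR adjusted p = 0.0995), without CSE library 2 (-0.43, edgeR adjusted p = 0.0588) or without control library 2 (-0.43, edgeR adjusted p = 0.052), and the adjusted p over all alternatives lay between 0.0014 and 0.0995.

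Igfbp7 encodes a secreted protein that binds IGFs weakly and also insulin. It stood at 216, 219 and 215 CPM in the control libraries and at 305, 286 and 301 CPM in the CSE libraries. The groups were far apart relative to their spread. The mean rose 1.37-fold from 217 ± 2.34 to 297 ± 9.80 CPM (0.46 ± 0.04, edgeR adjusted p = 6.3e-08). Igfbp6, which encodes a binding protein that prefers IGF2, stood at 12.4, 11.7 and 12.5 CPM in the control libraries and at 13.7, 13.1 and 13.8 CPM in the CSE libraries. Its groups did not overlap, yet the value of 0.15 ± 0.09 did not pass (edgeR adjusted p = 0.159, 95% interval -0.05 to 0.35), and its sign turned under total counts alone (-0.04). Igfbp1, which is not among the 10 genes and lies next to Igfbp3, was listed at 0 in all 6 libraries. A count of 0 allows up to 3 counts, or 0.142 to 0.177 CPM per library, for counting error only.

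The makeup of the binding protein reads shifted toward Igfbp7. This gene took 74.5 ± 1.74% of the counts of the 6 binding protein genes in the control and 85.1 ± 0.185% with CSE (SD, n = 3), with 73.1% to 76.4% in the control libraries and 85.0% to 85.3% in the CSE libraries. The share of Igfbp4 went from 16.9 ± 1.74% to 8.78 ± 0.520%, that of Igfbp3 from 2.92 ± 0.316% to 1.77 ± 0.435%, and that of Igfbp5 from 1.29 ± 0.395% to 0.133 ± 0.0372%. Igfbp6 held 4.19 ± 0.256% and 3.87 ± 0.0563%. For each of Igfbp3, Igfbp4, Igfbp5 and Igfbp7 the shares of the groups did not overlap, and shares within a library do not depend on how libraries are scaled. The shares are parts of 1 sum, so a larger share of Igfbp7 lowers the others, and their separations are not independent of each other. In CPM the groups of Igfbp3 overlapped. Igfbp6 had a lower mean share with CSE though its CPM was 13.5 ± 0.397 with CSE and 12.2 ± 0.432 in the control. The summed level of the 6 genes was 291 ± 8.79 CPM in the control and 349 ± 12.2 CPM with CSE, or 311 and 327 CPM under total counts alone. Without Igfbp7 the sum was 74.4 ± 7.18 in the control and 52.0 ± 2.42 CPM with CSE.

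**Figure D3:**
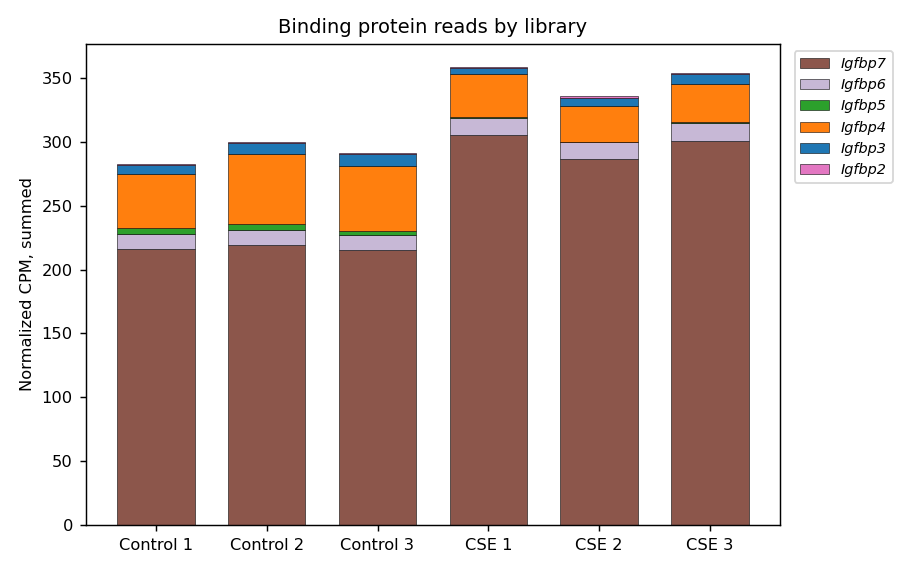
Stacked normalized CPM of the 6 binding protein genes in each library, not corrected for transcript length. The Igfbp7 segment (brown) is 215 to 219 CPM in the control libraries and 286 to 305 CPM in the CSE libraries, while the Igfbp4 segment (orange) is smaller with CSE.

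Genes of the enzymes that cut binding proteins, and of the inhibitors of those enzymes, moved in both directions. Of 17 tested, 7 were higher and 9 lower, with a median of -0.42, against -0.02 over all tested genes, of which 36.3% were higher and 37.5% lower. The median was -0.26 under the stricter filter, which tested fewer of them. The split was 4 higher and 10 lower under total counts alone, and 5 and 9 under upper-quartile scaling. Pappa, which encodes the protease pappalysin that cuts IGFBP4 and IGFBP5, stood at 88.4, 87.6 and 83.3 CPM in the control libraries and at 10.9, 12.1 and 13.7 CPM in the CSE libraries. The mean fell from 86.4 ± 2.76 to 12.2 ± 1.42 CPM, a 7.07-fold difference (-2.82 ± 0.08, edgeR adjusted p = 1.8e-15). Of the stanniocalcin genes, which encode pappalysin inhibitors and were chosen after their values were seen, Stc2 was higher at 7.44 ± 0.335 against 4.61 ± 0.797 CPM (0.69 ± 0.15, edgeR adjusted p = 5.0e-04), while Stc1 was under 1.3 CPM in every library. All 3 CSE libraries were below the filter level for Stc1, which passed the filter through the control group alone and so had to differ. The plasminogen gene Plg, one of the 7 counted as higher, passed likewise through the CSE group alone. The next members by smallest p were also lower. The metalloprotease genes Adamts1 and Mmp14 were at -1.27 ± 0.05 and -0.90 ± 0.04, and the urokinase gene Plau at -1.48 ± 0.08. The serine protease gene Htra1, chosen after its values were seen, was higher at 1034 ± 33.4 against 697 ± 19.9 CPM (0.57 ± 0.04).

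Other secreted or membrane proteins carry an IGFBP-type domain without being classical binding proteins. Of 8 such genes tested on this list, 7 were lower, none was higher and Ccn3 did not pass (-0.19 ± 0.16). Their median was -0.66, where 37.5% of all tested genes were lower. The list leaves out proteases with such a domain, which were counted above. Of these, both chosen after their values were seen, Htra1 was higher (0.57 ± 0.04) and Htra3 lower (-0.42 ± 0.17). The connective tissue growth factor gene Ccn2 stood at 5592, 5708 and 5736 CPM in the control libraries and at 929.7, 971 and 773 CPM in the CSE libraries, a 6.37-fold fall (-2.67 ± 0.07, edgeR adjusted p = 5.5e-16). Its relative Ccn5 fell from 360.2 ± 19.7 to 61.9 ± 3.31 CPM, and Ccn1 from 762 ± 17.5 to 446 ± 24.4 CPM. Crim1, which encodes a membrane protein that binds bone morphogenetic proteins, fell from 313 ± 8.04 to 111 ± 0.531 CPM. Under total counts alone all 8 were lower.

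Genes that act on IGF ligands and their RNA were mixed. Of 8 tested, 2 were higher, 3 lower and 3 did not pass, or 2 higher and 5 lower under total counts alone and under upper-quartile scaling. This share of 62.5% called lay below the 73.9% of all tested genes. Igf2bp2, an RNA-binding protein gene named for Igf2 RNA, rose 1.93-fold from 15.7 ± 0.437 to 30.4 ± 3.32 CPM, and Pcsk6, a proprotein convertase gene, rose 1.47-fold from 37.4 ± 1.98 to 54.9 ± 1.75 CPM. Hmga2, the gene of a chromatin protein that raises Igf2bp2 transcription in other cells, fell from 6.18 ± 0.671 to 1.51 ± 0.0893 CPM. H19 is given above.

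Growth hormone raises Igf1 transcription through JAK2 and STAT5. Of 8 tested genes of this axis, 3 were higher, 3 lower and 2 did not pass, or 75.0% called beside 73.9% of all tested genes. Both STAT5 genes were lower, Stat5a at 11.1 ± 0.893 against 18.2 ± 0.989 CPM and Stat5b at 9.62 ± 1.70 against 17.4 ± 1.26 CPM. The cytokine signalling inhibitor gene Socs3 was higher at 26.4 ± 2.49 against 9.96 ± 0.427 CPM, and Socs1 stood at 3.21 ± 0.748 against 0.242 ± 0.237 CPM. All 3 control libraries were under the filter level for Socs1, so it passed through the CSE group alone and had to differ. The growth hormone receptor gene Ghr, chosen after its values were seen, was higher at 25.7 ± 3.94 against 17.5 ± 1.13 CPM (0.55 ± 0.10).

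Downstream of the receptors, 40 genes of insulin and IGF receptor signalling were tested, of which 21 were higher, 10 lower and 9 missed the threshold. Their median was 0.20, or 0.07 under upper-quartile scaling and 0.02 under total counts alone. The share called, 77.5%, was near the background of 73.9%. This split depended on scaling, with 18 higher and 18 lower under upper-quartile scaling and 15 and 18 under total counts alone. The phosphatase gene Ptpn1, whose product dephosphorylates the insulin receptor, rose 2.13-fold from 60.0 ± 1.45 to 128 ± 2.83 CPM, and the docking protein gene Gab2 rose 2.51-fold from 22.7 ± 2.33 to 57.0 ± 2.83 CPM. Grb14, which encodes an adaptor that inhibits the insulin receptor, fell from 123 ± 9.85 to 50.7 ± 3.03 CPM, and the mTOR inhibitor gene Deptor fell from 95.6 ± 2.55 to 45.9 ± 1.57 CPM. The receptor substrate genes differed in direction. Irs1, chosen like Irs2 and Insr after its values were seen, was lower at 5.04 ± 0.752 against 11.5 ± 1.05 CPM (-1.19 ± 0.14), while Irs2 was higher at 100.4 ± 6.56 against 66.6 ± 2.21 CPM (0.59 ± 0.06). The insulin receptor gene Insr was higher at 42.7 ± 1.17 against 32.3 ± 2.64 CPM (0.40 ± 0.07).

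FOXO transcription factors are held in the cytoplasm when IGF or insulin signals through AKT. Of 17 tested FOXO genes and FOXO-induced genes, 7 were higher, 7 lower and 3 did not pass, which is 82.4% called against 73.9% of all tested genes. The median of 0.13 was -0.06 under total counts alone, -0.0035 under upper-quartile scaling, -0.09 without CSE library 3 and 0.42 with no filter. Gadd45a, a growth arrest gene that p53 and ATF4 also induce, rose 21.1-fold from 23.1 ± 0.825 to 487 ± 26.5 CPM, and the death gene Bcl2l11 rose 5.85-fold from 8.64 ± 1.17 to 50.5 ± 3.99 CPM. The ubiquitin ligase gene Fbxo32 fell from 17.0 ± 0.838 to 2.45 ± 0.266 CPM, and Txnip, which encodes an inhibitor of thioredoxin and glucose uptake, fell from 233 ± 6.94 to 59.2 ± 4.52 CPM.

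For Igf2r, whose product also sorts lysosomal enzymes, 13 genes of mannose 6-phosphate sorting and of the retromer that recycles the receptor were tested. Of these, 4 were higher, 5 lower and 4 missed the threshold, so 69.2% were called where the background was 73.9%. The split was 6 higher and 5 lower under RLE scaling, and 6 and 4 without control library 1. Their median of 0.03 was -0.16 under total counts alone, -0.11 under upper-quartile scaling and -0.03 without control library 1. The retromer gene Vps26a rose 2.40-fold to 160.4 ± 9.92 CPM. Vps35, of the same complex, rose 1.49-fold, from 188 to 209 CPM in the control libraries to 274 to 312 CPM in the CSE libraries. The adaptor gene Gga2 rose 1.72-fold to 58.8 ± 1.27 CPM, and the clathrin adaptor gene Ap1m1 fell from 69.5 ± 4.62 to 40.1 ± 3.13 CPM.

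**Figure D4:**
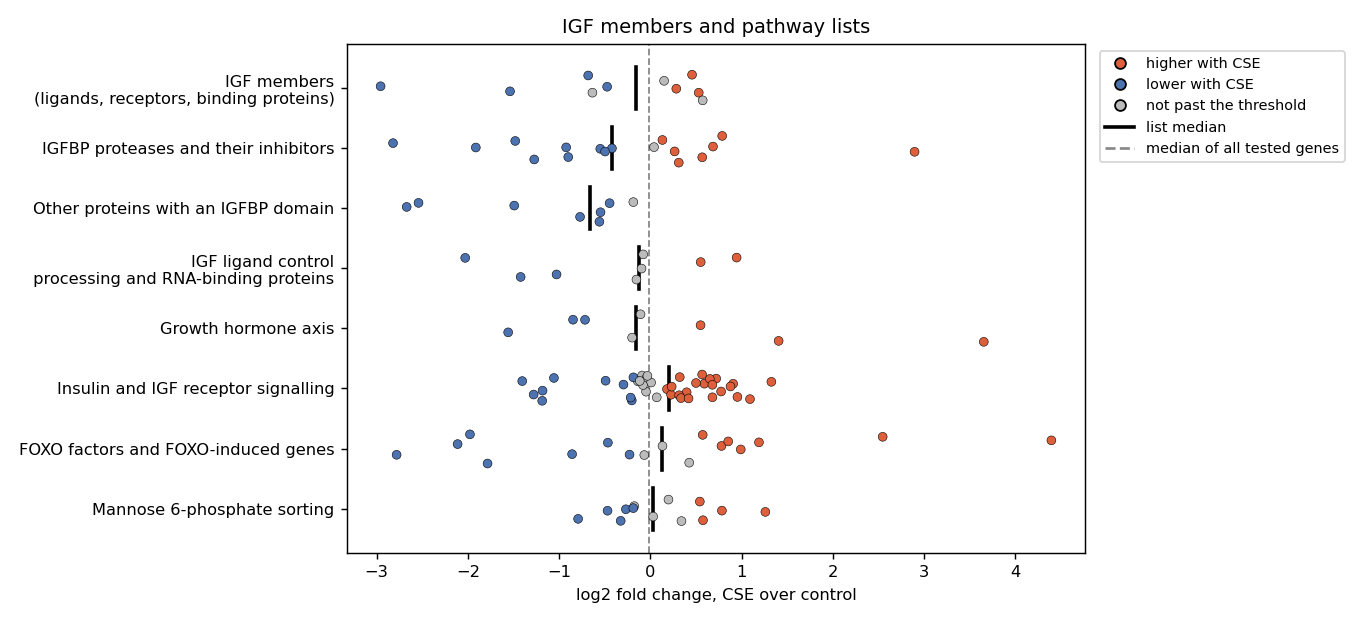
Log2 fold change of CSE over control for the 10 IGF genes and for each tested gene of 7 related lists, with higher calls in orange, lower calls in blue and genes not past the threshold in grey. Black ticks are list medians, which run from -0.66 for the IGFBP-domain genes to 0.20 for receptor signalling (0.02 under total counts alone), and the dashed line is the median of all tested genes.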

How the data were processed

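RNA was sequenced from 3 CSE and 3 control libraries of rat BMSCs. The deposited table holds raw read counts per gene symbol, with no normalization by the authors. HISAT2 2.0.4 and the build Rnor_6.0 are named in the submitters' processing notes, with no role given. The counting tool, strand setting and annotation: not given in the sources used here. Counts of genes that overlap on either strand may therefore be mixed. Columns were matched to samples by title.

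Genes were filtered with filterByExpr (minimum count 10) of edgeR 4.0.16 in R 4.3.3, scaled by TMM, and tested over all 13390 genes with glmQLFTest (quasi-likelihood, 2-sided), p adjusted by Benjamini-Hochberg and a threshold of 0.05. The SE is the log2 fold change divided by the square root of F. The steps were tested on simulated data with 12936 genes tested and 50 genes changed at each fold. Of these, 38% were recovered at 1.25-fold, 68% at 1.5-fold, 84% at 2-fold and 96% at 4-fold, with 9 false calls among 152. Far fewer genes were changed there than were called here, so the simulation does not test the scaling. Alternatives used RLE, upper-quartile and total-count scaling, DESeq2 1.42.0, limma-voom (limma 3.58.1), no filter, a stricter filter (5 CPM in 3 libraries), a replicate block, and each library left out. Replicates differed beyond sampling noise (chi-square per degree of freedom 3.38 to 6.06 within groups). Named genes are the 10 members, the exposure check genes, and of each list the 4 members with the smallest adjusted p. Others are marked in the text as chosen after their values were seen, apart from cell type markers, Igfbp1 and Ccn3. The 3 genes with the nearest profile to the highest and to the lowest member are named in the closing section. Members and lists were chosen with earlier results of these data known. Sequences matched RefSeq's GRCr8 table by symbol for all 10 members.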

Additional observations from a re-analysis of the deposited data

How the results depend on the processing

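Of the 10 IGF genes, 7 were called under RLE scaling, DESeq2, limma-voom, no filter and total counts alone, 8 under upper-quartile scaling, and 6 of 7 tested under the stricter filter, which dropped Igf2, Igfbp2 and Igfbp5. The calls of Igf1, Igf1r, Igfbp4 and Igfbp7 and their directions held under all 14 alternatives, and that of Igfbp5 under the 13 that tested it. Igf1 ranged from -1.73 to -1.45, Igfbp5 from -3.21 to -2.76, Igf1r from 0.34 to 0.55, Igfbp4 from -0.87 to -0.61 and Igfbp7 from 0.27 to 0.49. Igfbp6 turned from 0.15 to -0.037 under total counts alone, where library scaling alone differs. Leaving out 1 library at a time gave 6 to 7 called genes among the 10 and 9544 to 9814 among all. CSE and control libraries share replicate numbers in their titles, but same-numbered libraries did not deviate together (correlations of 0.0046, -0.0252 and -0.0169). No CSE library correlated best with the control of its own number. With 3 libraries per group, such values cannot exclude that the numbers pair them. With the replicate block 9756 genes and 7 of the 10 were called. Every count of called genes in the 7 related lists stayed within 1.5 times its value under each of the 14 alternatives. That bound is wide, since most members of each list were called, and it does not cover direction. Receptor signalling went from 21 higher and 10 lower with TMM to 15 and 18 under total counts alone. Depth limits Igf2, Igfbp2 and Igfbp5, which had from 6 to 87 counts per library.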

Other observations

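Genes whose profile over the 6 libraries lay nearest to that of Igfbp5, the lowest of the 10 genes, were sought by Euclidean distance between log2 CPM values taken relative to the control mean. The nearest were LOC102553329 (distance 0.459, log2 fold change -2.73 ± 0.28), LOC102555374 (0.507, -3.17 ± 0.31) and Rmi2 (0.544, -2.64 ± 0.22), a gene of the complex that dissolves recombination intermediates. With CSE these averaged 0.557, 0.375 and 0.875 CPM in that order, near the filter level of 0.525 CPM, so low counts limit the match. For Igfbp2, whose change did not pass, the nearest were RGD1307621, LOC103691928 and Clec4e, with log2 fold changes between 0.46 and 0.52. With 2 groups of 3 libraries such a distance mostly reflects the size of the difference between groups.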
